A study of Mus musculus with 12 samples.

Results

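The comparison described here set CD8 T cells cultured with an antibody to CD3 (αCD3) against CD8 T cells cultured without treatment (Naïve), across all genes. Its members were 6 of the 12 RNA libraries of the series, 3 αCD3 and 3 Naïve, chosen by their labels alone. In both groups the cells were taken from the spleens of C57BL/6 mice with magnetic beads against CD8 and kept in culture for 6 h. By the labels the mice were 6 weeks old, but the study's methods state a greater age, which leaves the age uncertain. The αCD3 dose was 1 µg/ml in one label field and is given in mg/ml in another. The other 6 libraries came from cells treated with IFNγ or with lipopolysaccharide (LPS), and they are used below only to show where αCD3 differed.

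CD3 is the group of chains that carries the signal of the T cell receptor (TCR). When it is bound by antibody, Lck and Zap70 phosphorylate the adaptors Lat and Lcp2, and calcium, Ras and NF-κB signalling follow. In a resting CD8 T cell this is known to switch on immediate early transcription factors within minutes, and then receptors for costimulation and cytokines, Myc, ribosome production and the cytotoxic program, while genes of the resting state are switched off.

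Library totals ranged from 11.8 M to 18.9 M counts in Naïve, and αCD3 replicate 1, with 27.6 M, was more deeply sequenced than αCD3 replicates 2 and 3 (12.3 M and 12.5 M). The labels do not say whether replicates came from separate mice or cultures, so p-values measure only the spread between these samples. The unit of level is CPM, a count divided by the TMM-scaled library size, and a gene is referred to as called where its adjusted p was under 0.05 in edgeR's quasi-likelihood test.

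The libraries held RNA of several cell types. The markers of the labelled cell, among them Cd3e and Cd8a, were present in all 6 libraries, and the 9 T cell markers summed to between 1355 and 1495 CPM in Naïve and between 2043 and 2275 CPM in αCD3. B cell markers were more abundant still, with a sum over 10 genes of 3414 to 3720 CPM in Naïve and 2391 to 2776 CPM in αCD3. Per kilobase of exon, Cd79a, a chain of the B cell receptor, stood at 620 ± 46.4 CPM (SD, n = 3) in Naïve and 439 ± 48.9 CPM in αCD3, against 64.4 ± 8.89 CPM and 119 ± 28.5 CPM for Cd8a. Macrophage and monocyte markers summed to 433 to 816 CPM in Naïve and 295 to 445 CPM in αCD3. Erythroid markers did not follow the treatment but the replicate number, with 337 CPM in Naïve replicate 1 and 406 CPM in αCD3 replicate 1 against 1297 to 1868 CPM in the other 4 libraries. In bulk RNA, fewer cells of a type and less RNA per cell cannot be told apart.

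**Figure D1:**
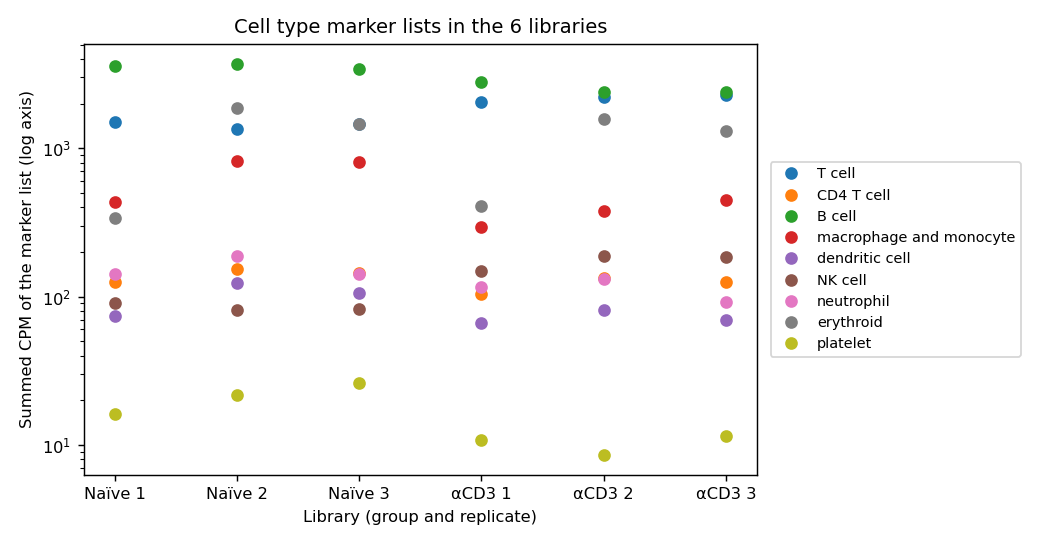
Summed CPM of each cell type marker list (log axis) in the 3 Naïve and 3 αCD3 libraries, 1 point per library. B cell markers lie above T cell markers in all 6 libraries, and erythroid markers are low in replicate 1 of both groups (337 and 406 CPM).

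αCD3 replicate 1 stood apart from the other αCD3 libraries. On the first principal component of the 500 most variable genes, which held 47.2% of the variance, the Naïve libraries lay between -22.2 and -19.4, αCD3 replicate 1 at 6.6, and αCD3 replicates 2 and 3 at 32.8 and 22.7. The genes that carry the results are therefore given with each library's value, and a count of 5 or more list members is given again where leaving out 1 library moved it by over 1.5 times.

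Of 12122 tested genes, 4681 were called (38.6%), with 2775 higher (22.9%) and 1906 lower (15.7%) in αCD3. With the replicate number as a block (a paired fit), 2938 genes were called lower. Without αCD3 replicate 2 the lower calls numbered 1043 and without αCD3 replicate 3 they numbered 1173. Most changes were small. The median log2 fold change was 0.57 among genes called higher and -0.60 among genes called lower, and 51.3% and 48.4% of them changed by less than 1.5-fold. At least 2-fold changes were called for 556 higher genes (4.59%) and 335 lower genes (2.76%), and at least 4-fold changes for 104 and 45. The 2-fold lower calls numbered 222 without αCD3 replicate 2 and 524 without αCD3 replicate 1. Among the 2-fold calls, 62.4% were higher. When libraries were scaled by total count alone, the median of all genes moved from -0.02 to -0.13 on the log2 scale and the proportion of calls in the upward direction moved from 59.3% to 44%, so small changes are read relative to that shift.

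**Figure D2:**
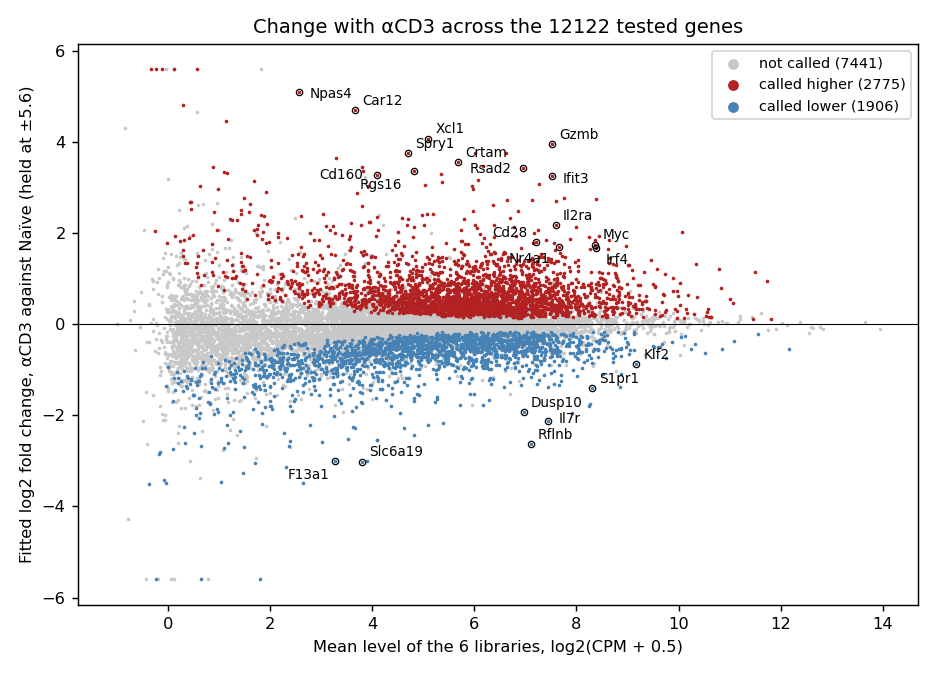
Fitted log2 fold change of αCD3 against Naïve (values beyond ±5.6 drawn at the edge) over the mean level of the 6 libraries as log2(CPM + 0.5), 1 point per tested gene. Red points are the 2775 genes called higher and blue points the 1906 called lower, with selected genes circled and named.

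Among the immediate early factors, the first genes that a TCR signal switches on, all 3 Nr4a nuclear receptors rose. Nr4a1 was at 128, 75.2 and 82.6 CPM in Naïve replicates 1 to 3 and at 387, 273 and 272 CPM in αCD3, a log2 fold change of 1.70 ± 0.24 (SE, adjusted p = 0.000414, edgeR). Nr4a2 rose by 2.07 ± 0.25 and Nr4a3 by 1.41 ± 0.15 on the log2 scale, and Fosl1, a partner of Jun in AP-1, rose by 2.65 ± 0.54 from under 1 CPM in each Naïve library. Egr1 was at 71.1, 63.3 and 54.3 CPM in Naïve and at 161, 101 and 104 CPM in αCD3. In these genes the groups did not overlap, as was the case for 6348 genes in all (52.4%), and αCD3 replicate 1 was the highest library for Nr4a1, Nr4a2, Fosl1 and Egr1. Egr2 was called at 0.51 ± 0.17, but 8 of 15 alternative fits lost the call. Fos (-0.46 ± 0.23, adjusted p = 0.131) and Junb (-0.09 ± 0.10, adjusted p = 0.506) were not called, and Jund and Btg2, an inhibitor of proliferation, fell by 0.52 and 0.63 on the log2 scale. In all, 6 of 20 members were called higher and 2 lower (4 lower with the replicate block), beside 22.9% and 15.7% of all genes.

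Npas4, a factor best known for its induction by activity in neurons, had the largest increase among the called genes with at least 5 CPM in αCD3. It stood at 0.439, 0.469 and 0 CPM in Naïve and at 11.1, 10.2 and 10.5 CPM in αCD3 (log2 fold change 5.10 ± 0.80, adjusted p = 0.000705, edgeR). The gene lies at chr19:4984355-4990316 on the minus strand (GRCm38). Its mean was 0.299 CPM after IFNγ and 0.138 CPM after LPS.

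More genes of the receptor's own machinery rose than fell. Zap70, the kinase recruited to the CD3 chains, was at 83.1, 76.9 and 84.6 CPM in Naïve and at 240, 217 and 223 CPM in αCD3, with a log2 fold change of 1.48 ± 0.08. Fyn, a Src family kinase, rose by 0.87 ± 0.09 and the adaptor Lcp2 by 0.77 ± 0.11. Of the receptor chains, Cd3g (0.67 ± 0.10) and Cd3e (0.49 ± 0.08) were called higher and Cd3d (0.13 ± 0.08, adjusted p = 0.244) was not, while Cd247, the zeta chain, fell by 0.35. Rasgrp1, which loads Ras with GTP, and the adaptor Grap2 fell by 0.70 and 0.63, and 4 of 15 alternative fits lost the call of Grap2. Of 20 members, 10 were called higher (50.0%, beside 22.9% of all genes) and 3 lower (beside 15.7%), with 5 lower under the replicate block. The coreceptor gene Cd8a went from 206, 227 and 270 CPM to 313, 504 and 479 CPM (0.88 ± 0.17). These increases came beside a fall of the summed B cell and macrophage markers, whose part in them was not tested.

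Genes that limit signalling in T cells were called in both directions, and some increases were steep. Spry1, an inhibitor of Ras signalling, was at 2.97, 4.46 and 3.15 CPM in Naïve and at 48.7, 50.3 and 43.4 CPM in αCD3 (3.76 ± 0.17, adjusted p = 1.66e-06, edgeR). Rgs16, which shortens signals from G protein-coupled receptors, went from 5.75, 3.83 and 4.9 CPM to 56.8, 54.4 and 41 CPM (3.38 ± 0.20). The 3 αCD3 libraries were close to each other for both genes, replicate 1 included. Cd5 (1.55 ± 0.20), Cd6 (1.43 ± 0.16), Sla (1.49 ± 0.11) and the ubiquitin ligase gene Cblb (1.05 ± 0.09) also rose. Other members were lower, with Dusp10, a phosphatase of stress kinases, at 157, 200 and 237 CPM in Naïve and at 57.1, 37.4 and 60.8 CPM in αCD3 (-1.93 ± 0.22). Socs3 (-1.24 ± 0.29) and Sla2 (-1.18 ± 0.09) fell too. Of 27 members, 10 were called higher (37.0%, beside 22.9% of all genes) and 6 lower (22.2%, beside 15.7%), with 10 lower under the replicate block.

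Several surface receptors of activated T cells rose. Crtam, a receptor of activated cytotoxic cells, was at 9.46, 4.85 and 9.08 CPM in Naïve and at 81.7, 110 and 88 CPM in αCD3 (3.56 ± 0.24). Tnfrsf9, which encodes 4-1BB, went from 38.9, 65 and 60.2 CPM to 283, 452 and 390 CPM (2.78 ± 0.37). Il2ra, the high-affinity chain of the IL-2 receptor, went from 59.1, 77.7 and 72.9 CPM to 198, 392 and 356 CPM (2.17 ± 0.28), with αCD3 replicate 1 the lowest of its group. Cd28, the main costimulatory receptor, was at 81.6, 55.8 and 58.2 CPM in Naïve and at 227, 230 and 225 CPM in αCD3 (1.80 ± 0.20). Of 17 members, 9 were called higher (52.9%, beside 22.9% of all genes) and 1, Cd83, lower (5.88%, beside 15.7%), with a median log2 fold change of 1.28. Cd44, a marker of antigen experience, gave -0.09 ± 0.12 and Tnfrsf18 -0.15 ± 0.22, and neither was called.

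Of 14 inhibitory receptors and ligands, 8 were called higher (57.1%, beside 22.9% of all genes) and 1 lower (7.14%, beside 15.7%), with 3 lower under the replicate block. Lag3, a receptor for MHC class II, was at 9.65, 15.6 and 10.5 CPM in Naïve and at 101, 151 and 144 CPM in αCD3 (3.48 ± 0.26), and Cd160 went from 3.36, 3.44 and 2.48 CPM to 29.7, 32.3 and 27.8 CPM (3.27 ± 0.20). Tigit (0.86 ± 0.13), Ctla4 (0.78 ± 0.12) and Pdcd1 (0.67 ± 0.14), which encodes PD-1, changed by under 2-fold. Havcr2 (-0.53 ± 0.21, adjusted p = 0.0644) was not called.

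The secreted factors were uneven. Xcl1, a chemokine that draws cross-presenting dendritic cells, was at 3.12, 4.54 and 3.81 CPM in Naïve and at 59.7, 71.6 and 60.3 CPM in αCD3 (4.07 ± 0.29, adjusted p = 7.35e-06, edgeR). Tnf went from 17, 15.1 and 16.2 CPM to 30.9, 41.4 and 36.6 CPM (1.17 ± 0.13), and Tnfsf14, which encodes LIGHT, rose by 2.26 ± 0.23. Ifng was at 1.8, 2.35 and 3.69 CPM in Naïve and at 4.34, 40.6 and 31.2 CPM in αCD3. All αCD3 libraries were above all Naïve libraries, but replicate 1 lay close to the Naïve range, and Ifng was not called (3.25 ± 1.21, adjusted p = 0.055). In 5 of 15 alternative fits Ifng was called, those with the replicate block (adjusted p = 0.0108 with all 12 libraries, edgeR), without αCD3 replicate 1 (adjusted p = 0.0242, edgeR), with DESeq2 and of the 6 libraries alone, and over all 15 the adjusted p of Ifng ranged from 0.00725 to 0.475. Il2 was at 4.19, 6.88 and 13.5 CPM in Naïve and at 4.65, 4.38 and 6.6 CPM in αCD3, so its groups overlapped (-0.65 ± 0.49, adjusted p = 0.312). Over the 23 tested members, 8 were called higher and 2, Ltb and Ccl5, lower (5 lower with the replicate block, and 5 higher without Naïve replicate 1 or without αCD3 replicate 2). These are 34.8% and 8.7%, beside 22.9% and 15.7% of all genes, and 5 of 23 is near the share of all genes. The call of Ccl5 was lost in 5 of 15 alternative fits.

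Of the cytotoxic genes, Gzmb, the granzyme that triggers caspases in the target cell, changed most, and αCD3 replicate 1 lay far below the other αCD3 libraries. Gzmb was at 13.4, 24.1 and 29.3 CPM in Naïve and at 54.2, 561 and 422 CPM in αCD3 (3.96 ± 0.93, adjusted p = 0.00741, edgeR). The log2 fold change of Gzmb was 4.47 without αCD3 replicate 1 and ranged from 3.42 to 4.47 over all 15 alternative fits. Nkg7 (1.78 ± 0.24) and Tnfsf10, which encodes TRAIL (1.51 ± 0.36), rose. Prf1, the pore protein that lets granzymes in, stayed under 5 CPM in every library and was not called (0.98 ± 0.55, adjusted p = 0.179), and neither was Fasl (0.20 ± 0.41). Of 19 members, 8 were called higher (42.1%, beside 22.9% of all genes) and 1, Gzmk, lower (5.26%, beside 15.7%), with 4 lower under the replicate block.

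**Figure D3:**
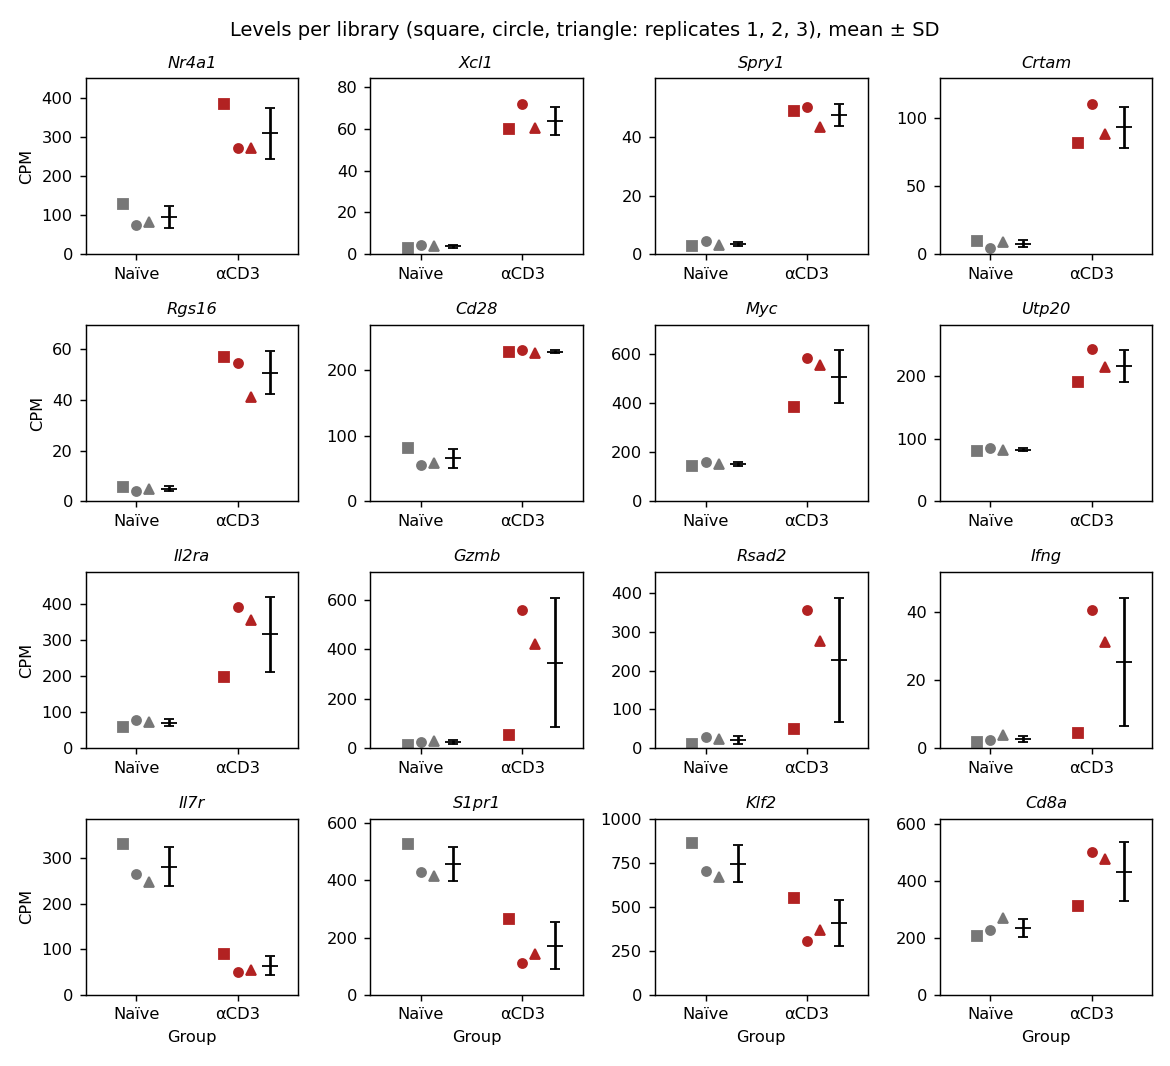
CPM of 16 genes in the Naïve (grey) and αCD3 (red) libraries, with squares, circles and triangles for replicates 1, 2 and 3 and the mean ± SD (n = 3) beside them. Spry1 and Cd28 are near equal in the 3 αCD3 libraries, while Gzmb (54.2, 561 and 422 CPM), Rsad2 and Ifng are low in replicate 1.

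In the machinery that makes ribosomes, nearly all listed genes were called higher. Myc, the factor that drives this program, was at 144, 159 and 152 CPM in Naïve and at 384, 584 and 557 CPM in αCD3 (1.75 ± 0.15, adjusted p = 1.9e-05, edgeR). Of the 29 tested genes of the list, 28 were called higher (96.6%, beside 22.9% of all genes) and none lower (beside 15.7%), with a median of 1.21. The remaining gene, Nolc1, was under 3 CPM in each library. Polr1b, a subunit of RNA polymerase I, rose by 1.48 ± 0.10, the processing factor Utp20 by 1.40 ± 0.09 and Fbl, the methyltransferase fibrillarin, by 1.38 ± 0.10. Utp20 was at 79.8, 85.1 and 81.4 CPM in Naïve and at 191, 243 and 215 CPM in αCD3, with no overlap. Over the list, the median difference from the Naïve mean on the log2(CPM + 0.5) scale was 1.04, 1.36 and 1.25 in αCD3 replicates 1 to 3. The count of 28 was the same without αCD3 replicate 1.

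Genes for protein synthesis and folding moved with them. Of 19 cytosolic aminoacyl-tRNA synthetases, which charge tRNAs with amino acids, 18 were called higher (94.7%, beside 22.9% of all genes) and none lower (beside 15.7%). The increases ran from Sars (0.28 ± 0.05) to Wars (1.20 ± 0.25), and Qars was not called (0.07 ± 0.14). Of 23 chaperone genes, 19 were called higher (82.6%, beside 22.9% of all genes) and none lower (beside 15.7%). Hspd1, the mitochondrial chaperonin, went from 161, 195 and 205 CPM to 442, 703 and 636 CPM (1.67 ± 0.19), and Hsp90ab1 rose by 1.15 ± 0.08. The heat-inducible Hspa1a (0.14 ± 0.53) and Hspa1b (0.00 ± 0.61) were not called.

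Metabolic genes changed by pathway and not as a whole. In the serine and one-carbon pathway, which feeds nucleotide synthesis, Mthfd1 (1.89 ± 0.16), Shmt1 (1.84 ± 0.12) and Psat1 (1.56 ± 0.16) rose, and 11 of 18 members of the list with the integrated stress response were called higher and none lower (61.1%, beside 22.9% of all genes), and 9 higher and 2 lower under scaling by total count. The stress targets in it gave smaller values, with Atf4 at 0.20 ± 0.06 and Trib3 (-0.34 ± 0.17) and Chac1 (-0.18 ± 0.15) not called. Of 18 glycolysis genes, 12 were called higher (66.7%, beside 22.9% of all genes) and 2, Pdk1 and Aldoc, lower (11.1%, beside 15.7%), and 6 of 15 alternative fits lost the call of Aldoc. Ldha, which turns pyruvate into lactate, was at 322, 424 and 402 CPM in Naïve and at 766, 1174 and 1133 CPM in αCD3 (1.42 ± 0.19). Among the transporters, Slc7a1 (1.22 ± 0.09), Slc7a5 (1.15 ± 0.11) and the lactate carrier Slc16a1 (1.33 ± 0.12) rose, while the glucose carrier Slc2a1 gave 0.01 ± 0.06, with all 6 libraries between 45.6 and 47.8 CPM. Slc6a19, a carrier of neutral amino acids, was at 33.7, 19.3 and 19.5 CPM in Naïve and at 4.97, 0.993 and 2.26 CPM in αCD3 (-3.02 ± 0.47). Of 17 transporters, 8 were called higher (47.1%, beside 22.9% of all genes) and 3 lower (17.6%, near the 15.7% of all genes), with 5 lower under the replicate block. Cholesterol and fatty acid synthesis had 5 of 27 higher and 2 lower (8 higher with the replicate block, 3 higher and 4 lower without replicate 1 of both groups or under scaling by total count), or 18.5% and 7.41% beside 22.9% and 15.7% of all genes. The medians of these lists, 0.01 and 0.10, turned to -0.10 and -0.01 under scaling by total count.

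Cell cycle genes were called in both directions. Ccnd2, the D-type cyclin of lymphocytes entering the cycle, was at 127, 189 and 205 CPM in Naïve and at 386, 795 and 691 CPM in αCD3 (1.84 ± 0.33), and its partner gene Cdk4 rose by 0.97 ± 0.13. Cdkn1b, the inhibitor p27, went from 267, 213 and 211 CPM to 161, 102 and 108 CPM (-0.90 ± 0.19). The replication genes Mcm6 (0.84 ± 0.07) and Pcna (0.68 ± 0.09) rose, and Mki67, a marker of dividing cells, fell by 0.47. Of 32 members, 8 were called higher and 8 lower, beside 22.9% and 15.7% of all genes. The lower count was 4 without αCD3 replicate 2 or without replicate 1 of both groups, and 5 without Naïve replicate 1, Naïve replicate 3 or αCD3 replicate 3. The median of 0.08 turned to -0.03 under scaling by total count.

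Genes of the resting and circulating state fell. Il7r, the receptor for the survival cytokine IL-7, was at 331, 265 and 249 CPM in Naïve and at 89.5, 50 and 53.6 CPM in αCD3 (-2.12 ± 0.26, adjusted p = 0.000157, edgeR). S1pr1, which lets T cells leave lymphoid tissue, went from 527, 429 and 417 CPM to 264, 110 and 143 CPM (-1.41 ± 0.28). Klf2, the factor that maintains S1pr1, went from 865, 705 and 670 CPM to 553, 304 and 368 CPM (-0.87 ± 0.22). In each of these genes αCD3 replicate 1 was the closest to Naïve, and over the 22 members it was the highest αCD3 library for 18. Pik3ip1, an inhibitor of PI3 kinase, fell by 1.66, Klf3 by 1.31 and Itga6 by 1.31. The factors Tcf7 (-0.06 ± 0.16) and Foxo1 (-0.23 ± 0.14) were not called, and Ccr7 was higher by 0.22 ± 0.07, a call that 6 of 15 alternative fits lost. The list had 10 members lower (45.5%, beside 15.7% of all genes) and 3 higher (13.6%, beside 22.9%), and 1 higher under scaling by total count or without Naïve replicate 2, Naïve replicate 3, αCD3 replicate 2 or αCD3 replicate 3.

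Of the transcription factors of effector cells, 2 of 22 were called at least 2-fold higher (beside 4.59% of all genes), Irf4 and Eomes. Irf4, whose level follows the strength of the TCR signal, was at 158, 159 and 159 CPM in Naïve and at 514, 500 and 516 CPM in αCD3 (1.68 ± 0.10). Eomes rose by 1.29 ± 0.24 and Nfatc1 by 0.94 ± 0.29, a call of Nfatc1 that 5 of 15 alternative fits lost. Tbx21, which encodes T-bet, was at 15.9, 17.2 and 23.8 CPM in Naïve and at 26.7, 69 and 50.7 CPM in αCD3 and was not called (1.35 ± 0.66, adjusted p = 0.129). In all, 7 were called higher (31.8%, beside 22.9% of all genes) and 4 lower (18.2%, beside 15.7%). The counts were 4 and 1 without αCD3 replicate 2, 5 and 1 without αCD3 replicate 3, and 4 and 3 without Naïve replicate 2. Of 8 Gimap GTPase genes, which support lymphocyte survival, 1 was higher (2 with the replicate block) and 3 lower, and the higher call was lost in each fit without a single library other than αCD3 replicate 1. These shares are 12.5% and 37.5%, beside 22.9% and 15.7% of all genes. Of 23 NF-κB subunits and targets, 8 were higher and 1 lower (5 lower with the replicate block), all called members by under 2-fold. The shares were 34.8% higher and 4.35% lower, beside 22.9% and 15.7% of all genes, and the higher count was 5 without Naïve replicate 2, Naïve replicate 3 or αCD3 replicate 2, and 5 with 3 lower under scaling by total count. Of 16 Bcl2 family and death receptor genes, 6 were higher, among them Bcl2l1 (0.85 ± 0.19) and Bax (1.02 ± 0.14), and 2 lower, Mcl1 and Bad (4 lower with the replicate block), or 37.5% and 12.5% beside 22.9% and 15.7%.

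**Figure D4:**
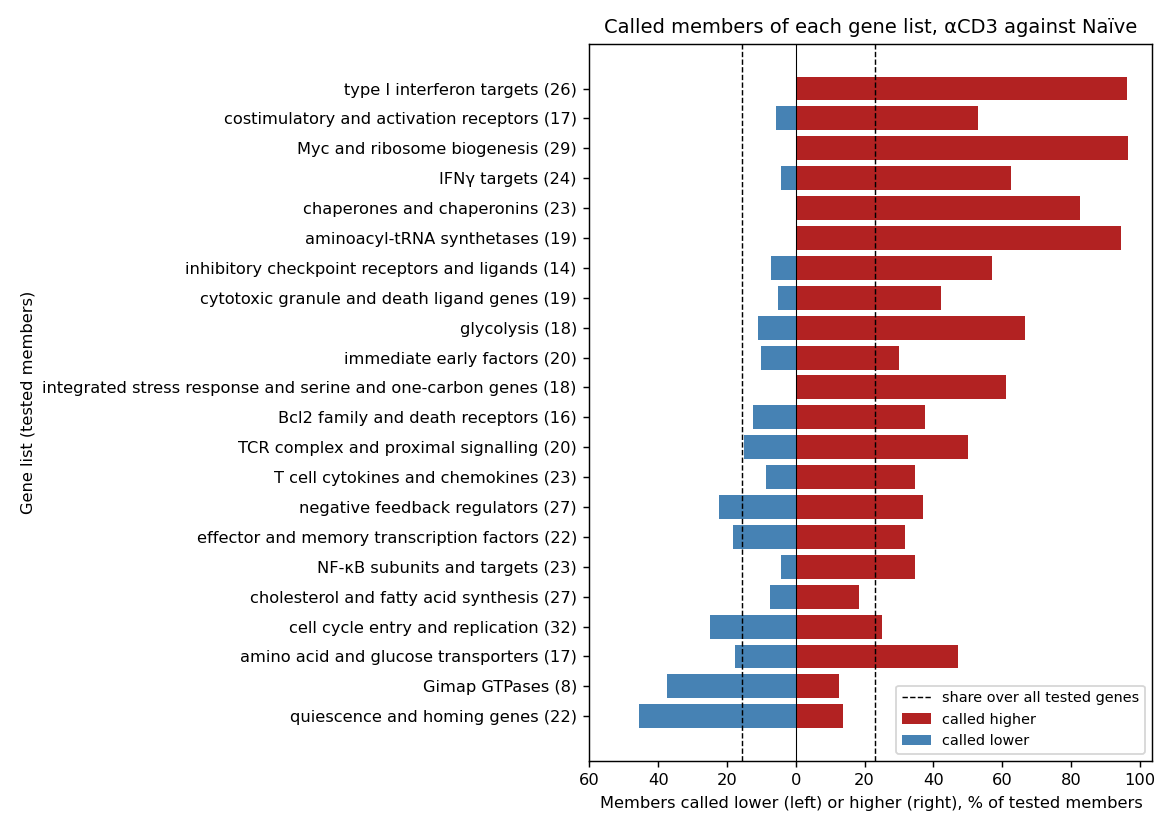
Share of the tested members of each gene list called higher (right, red) or lower (left, blue) in αCD3, ordered by the median log2 fold change, with the number of tested members in brackets. Dashed lines mark the shares over all tested genes (22.9% higher and 15.7% lower).

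Interferon targets were the list with the largest median and the largest spread between αCD3 libraries. Of 26 tested type I interferon targets, antiviral genes switched on through ISGF3, 25 were called higher (96.2%, beside 22.9% of all genes). None was called lower (beside 15.7%), and the median was 2.48. Without αCD3 replicate 1 all 26 were called higher, with a median of 2.94, and without αCD3 replicate 2 the count was 19, with a median of 2. The count was 20 without αCD3 replicate 3, Naïve replicate 1 or Naïve replicate 3, 22 without Naïve replicate 2, and 19 with limma-voom. Rsad2, which encodes viperin, was at 9.85, 29 and 24.5 CPM in Naïve and at 49, 356 and 277 CPM in αCD3 (3.44 ± 0.75). Ifit1 went from 21.9, 46.5 and 41.5 CPM to 62.1, 360 and 305 CPM (2.73 ± 0.62) and Isg15 from 6.87, 17.4 and 15.9 CPM to 23.3, 194 and 142 CPM (3.17 ± 0.76). In all 26 genes αCD3 replicate 1 was the lowest αCD3 library, and the list's median difference from the Naïve mean was 0.67, 3.16 and 2.74 in replicates 1 to 3, beside -0.40, 0.25 and 0.14 in the Naïve libraries. IFNγ targets gave 15 higher and 1 lower of 24 (62.5% and 4.17%, beside 22.9% and 15.7% of all genes), with library medians of 0.29, 1.27 and 1.00. This count depended on single libraries, with 19 higher without αCD3 replicate 1, 5 without αCD3 replicate 2, 8 without αCD3 replicate 3, 6 without Naïve replicate 1, 9 without Naïve replicate 2 and 10 without Naïve replicate 3. At 5 or 6 of 24 the share was near that of all genes. Cxcl10, which was counted above with the secreted factors and not in this list, was at 5.56, 9.46 and 11.4 CPM in Naïve. In αCD3 Cxcl10 was at 20.4, 198 and 138 CPM (3.76 ± 0.79). Nos2 had no counts in Naïve and was at 0.247, 3.72 and 2.01 CPM in αCD3, and 7 of 13 alternative fits lost its call.

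**Figure D5:**
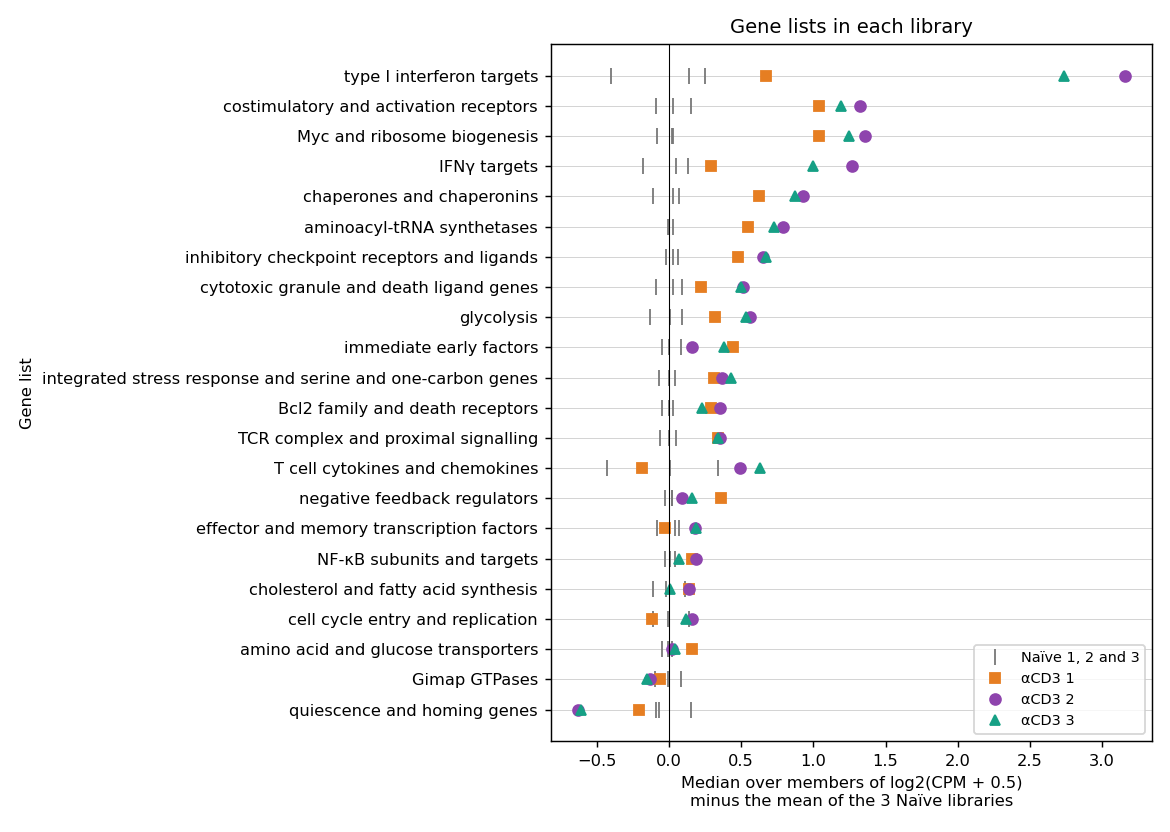
Median over the members of each gene list of log2(CPM + 0.5) minus the mean of the 3 Naïve libraries, for each αCD3 library (square, circle and triangle) and each Naïve library (grey ticks). αCD3 replicate 1 lies at 0.67 for type I interferon targets, against 3.16 and 2.74, and near the others for TCR complex genes (0.34, 0.35 and 0.34).

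The split between αCD3 libraries followed the gene. Of the 104 genes called at least 4-fold higher, αCD3 replicate 1 was the lowest αCD3 library for 78 and the highest for 13. Xcl1, Spry1, Crtam, Rgs16, Cd160, Cd28, Irf4 and Zap70 differed by less than 1.5-fold between the 3 libraries, and the immediate early list had its highest median in replicate 1 (0.44, against 0.16 and 0.38). Replicate 1 was also the deepest library. By their median, markers of some other cells, but not of B cells, were lower in replicate 1 than in replicates 2 and 3 of both groups. The median difference from the Naïve mean was -0.53, 0.29 and 0.33 in Naïve replicates 1 to 3 and -1.05, -0.69 and -0.41 in αCD3 for macrophage and monocyte markers. For NK cell markers it was -0.64, 0.29 and 0.23 in Naïve and -0.79, 0.14 and 0.17 in αCD3. These medians followed the replicate number, as the erythroid markers did. The summed NK cell markers did not in Naïve, at 90.29, 81.64 and 82.86 CPM in replicates 1 to 3. B cell markers gave 0.05, 0.03 and -0.07 in Naïve and -0.35, -0.53 and -0.60 in αCD3, with replicate 1 the highest of each group, and neutrophil markers gave -0.16, 0.36 and -0.24 and -0.31, 0.05 and -0.61. The part of depth or of these cells in the split was not tested.

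Many promoters of the interferon targets held a common motif. The sequences below are the 150 bases before the first listed start site in RefSeq (GRCm38.p6), 5′ to 3′ on the gene's strand, shown for 3 interferon targets and for Gzmb because these genes carry the split described above. Capitals mark the core of the interferon-stimulated response element (ISRE, GAAANNGAA) in the first 3 and the AP-1 motif (TGANTCA) in Gzmb, on either strand, with overlapping matches run together.
Ifit1: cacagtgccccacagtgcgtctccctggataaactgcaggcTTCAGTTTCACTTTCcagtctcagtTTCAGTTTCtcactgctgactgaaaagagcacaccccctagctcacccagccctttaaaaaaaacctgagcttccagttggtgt
Isg15: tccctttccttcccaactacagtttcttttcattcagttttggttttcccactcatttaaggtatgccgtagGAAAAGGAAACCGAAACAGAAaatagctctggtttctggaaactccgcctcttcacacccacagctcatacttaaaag
Rsad2: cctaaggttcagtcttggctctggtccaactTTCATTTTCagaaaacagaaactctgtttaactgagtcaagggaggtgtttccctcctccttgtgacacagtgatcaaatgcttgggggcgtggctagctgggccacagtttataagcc
Gzmb: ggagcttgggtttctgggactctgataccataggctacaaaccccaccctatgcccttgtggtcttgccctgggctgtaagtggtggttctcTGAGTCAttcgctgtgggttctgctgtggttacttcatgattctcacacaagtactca

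The windows are chr19:34640739-34640888 on the plus strand for Ifit1, chr4:156200819-156200968 on the minus strand for Isg15, chr12:26456453-26456602 on the minus strand for Rsad2 and chr14:56262335-56262484 on the minus strand for Gzmb. Ifit1 and Isg15 held 3 matches each and Rsad2 and Gzmb 1 each. In the whole windows of 250 bases before to 50 after the start, the ISRE core was found in 12 of 20 type I interferon targets with a listed promoter (60.0%) and in 9 of 16 IFNγ targets (56.2%), beside 7.6% of the 9635 tested genes with a promoter. Among the 80 such genes called at least 4-fold higher, 17 held the ISRE core (21.2%) and 15 the AP-1 motif (18.8%, beside 5.1% of all). The AP-1 motif was also in 6 of the 20 type I interferon targets (30.0%) and 3 of the 16 IFNγ targets, and the Rsad2 window above holds its letters without capitals. The E-box CACGTG, the motif that Myc binds, was in 6 of 23 genes of the Myc and ribosome list (26.1%) and 4 of 11 tRNA synthetases (36.4%), beside 966 of the 9635 tested genes. The CRE (TGACGTCA), the Egr motif (GCGTGGGCG) and the CArG box were in 1, 1 and 0 of the 80 genes. These matches describe the letters of the windows and were not tested.

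Among the largest decreases, some were of lymphocyte genes and some of myeloid genes. Rflnb, a filamin regulator, was at 267, 235 and 210 CPM in Naïve and at 61.7, 24.8 and 27.1 CPM in αCD3 (-2.63 ± 0.34). F13a1, a factor XIII subunit of monocytes, was at 6.09, 23.5 and 19.2 CPM in Naïve and at 1.9, 1.99 and 2.17 CPM in αCD3, and Mmp8, a protease of neutrophils, fell by 2.55. Both were also low after IFNγ (0.998 and 3.63 CPM) and LPS (1.94 and 2.84 CPM). Of 13 tested macrophage and monocyte markers, 5 were called lower (38.5%, beside 15.7% of all genes), 10 with the replicate block, 3 without αCD3 replicate 3, and 1 without αCD3 replicate 1, αCD3 replicate 2, Naïve replicate 2 or Naïve replicate 3, a share below that of all genes. Of 10 B cell markers, 5 were called lower (50.0%, beside 15.7% of all genes), 7 with the replicate block and 9 with that block in the 6 libraries alone. The count was 2 without Naïve replicate 1, Naïve replicate 2, αCD3 replicate 2, αCD3 replicate 3 or replicate 1 of both groups, near the share of all genes. Beside 15.7% of all genes, dendritic cell markers had 2 of 8 lower, neutrophil markers 1 of 7, platelet markers 1 of 4 and CD4 T cell markers 2 of 5. With the replicate block the first 3 of these counts were 4, 4 and 3, and the dendritic count was 0 without Naïve replicate 2 or without αCD3 replicate 2. In the fit of all libraries none of these lists had a member called higher, nor did the erythroid list have any call. Of the 6 NK cell markers, Eomes, which CD8 T cells also express, was the member called.

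To show what set αCD3 apart, αCD3 was compared directly with the other treatments, in contrasts that share the αCD3 libraries. Against IFNγ 4514 genes were called (37.2%) and against LPS 2351 (19.4%). Spry1 (3.66 ± 0.18), Crtam (3.78 ± 0.25), Xcl1 (3.30 ± 0.28) and Lag3 (2.22 ± 0.25) were higher in αCD3 than in LPS on the log2 scale, as were Nr4a1 (1.20 ± 0.24) and Cd8a (1.08 ± 0.17). Egr2 was higher than in LPS by 2.19 ± 0.18, with means of 24.1 CPM in Naïve, 34.1 CPM in αCD3 and 7.54 CPM after LPS, so most of that difference lay in the level after LPS. Cd69 (-0.77 ± 0.19) and Tnf (-0.86 ± 0.12) were lower in αCD3 than in LPS, though both were called higher than in Naïve. Cd69 was at 155, 132 and 133 CPM in Naïve and at 288, 444 and 357 CPM in αCD3 (1.37 ± 0.19). Myc differed by -0.23 ± 0.15 (adjusted p = 0.31) and Irf4 by 0.31 ± 0.10 (adjusted p = 0.051), and neither was called. Il2ra differed by -0.52 ± 0.26 (adjusted p = 0.2, edgeR) and was called with the replicate block (adjusted p = 0.0199). Il7r was lower in αCD3 than in LPS by -1.50 ± 0.25 and than in IFNγ by -2.01 on the same scale.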

How the data were processed

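RNA of 12 mRNA libraries (splenic CD8 T cells, 4 groups of 3) was pseudo-aligned by the authors with Kallisto to mm10, and the authors deposited the estimated counts, or expected counts, for 20778 gene symbols without scaling. The Kallisto version and annotation are not given in the sources used here. Per the labels the authors used DESeq2 1.24.0. Here counts were rounded to whole numbers and tested in R 4.3.3 with edgeR 4.0.16 (glmQLFit and glmQLFTest, TMM factors, filterByExpr, robust estimation, group as the only term, all 12 libraries), with Benjamini-Hochberg adjustment over the 12122 genes kept and a threshold of 0.05. SE is the log2 fold change over the root of F. Groups came from the labels. Gene coordinates and exon lengths are from GENCODE M21, which held 20612 of the symbols.

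Genes were named where they were among the 10 largest changes per direction (called, without overlap or a predicted symbol, and with a group mean of 5 CPM or more), among up to 3 called members per direction of a list (at least 1 CPM), or among 18 well-known genes of T cell activation and rest. Some of the genes so chosen are not reported here, and list members outside this rule were picked with their values in view. The comparison, gene lists and markers were chosen with earlier results of these data known. Replicates of a group differed by 4.69 to 56.4 in chi-square per degree of freedom, so none was a repeat of another.

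Same-numbered αCD3 and Naïve libraries deviated together from their group means (r = 0.396, 0.203 and 0.157 across genes), which is taken from the data and not from the labels, and the fit with the replicate block is given where it moved a nonzero count by over 1.5 times. DESeq2 1.42.0, limma-voom (limma 3.58.1), other scalings and filters, and leaving out libraries were tried in 14 further fits, and 1 more was added after the data were seen. The test was also run on simulated data, with the outcome not reported here.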

Additional observations from a re-analysis of the deposited data

How the results depend on the processing

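Across the 15 alternatives 3130 to 6349 genes were called, against 4681. More genes were called higher than lower in each of them except scaling by total count, which gave 2095 higher and 2667 lower against 2775 and 1906. With the replicate block and 12 libraries 2938 genes were called lower against 1906, and with single replicates left out 1043 to 2101 were. Genes called at least 2-fold lower numbered 335, 503 under scaling by total count, and 222 to 524 with single replicates left out. The lowest counts came without αCD3 replicate 2 (1043 and 222) and the highest without αCD3 replicate 1 (2101 and 524). Without αCD3 replicate 3, 1173 genes were called lower. The cause was not tested. DESeq2 called 4963 genes and limma-voom 4777. With replicate 1 of both groups left out, an alternative chosen after seeing the data, 4298 genes were called, of which 3943 were shared with the 4681. Single genes were carried through the alternatives for 121 genes, not for every gene named, and no called value among the 121 changed sign. Over these, 1674 kept their side of the threshold, 133 lost it and 6 gained it. Calls lost most often were Sipa1l2 and Gimap5 (10 of 15 each), Bach2 (9), Egr2, Prdm1 and Birc3 (8 each), Gimap8 (7) and Nos2 (7 of 13). Gzmb kept its call in all 15. With 3 libraries a group and total counts of 11.8 M to 27.6 M, genes of a few CPM such as Il2, Prf1 and Il21 had SEs of 0.49, 0.55 and 0.85, so the lack of a call in these 3 does not show that they did not change.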

Other observations

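Genes outside the lists, chosen after their values were seen, added to the picture. Among them were 5 genes of pyrimidine synthesis and of nucleoside and folate supply. Cad, which starts pyrimidine synthesis, was at 93.8, 95.6 and 90.1 CPM in Naïve and at 232, 333 and 298 CPM in αCD3 (log2 fold change 1.63 ± 0.11, SE). Umps, which completes it, rose by 1.62 ± 0.09, the deaminase gene Dctd by 2.36 ± 0.18, the folate carrier Slc19a1 by 1.99 ± 0.14 and the nucleoside carrier Slc29a1 by 1.77 ± 0.06. Their means after LPS (227 CPM for Cad and 105 CPM for Slc29a1) were also above the Naïve range.

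Itm2a, a membrane protein gene of T cells, was at 15.6, 13.5 and 11.1 CPM in Naïve and at 144, 92.5 and 93.4 CPM in αCD3 (3.04 ± 0.23), with means of 10.5 CPM after IFNγ and 8.26 CPM after LPS. Hivep3, a zinc finger factor, was at 29.4, 30 and 30.4 CPM in Naïve and at 136, 139 and 135 CPM in αCD3 (2.19 ± 0.18), and Gfi1, a repressor, rose by 1.66 ± 0.11. Both were near the Naïve level after LPS (32.1 and 24.1 CPM).

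Among cytokine receptor genes, Ifngr1, Il4ra and Il6ra were lower in αCD3, as was Il7r above. Il2ra and Il6st (0.69 ± 0.13), the signalling partner of Il6ra, were higher, and Il2rb was not called (0.48 ± 0.19, adjusted p = 0.071, edgeR). Ifngr1, a chain of the IFNγ receptor, was at 675, 666 and 658 CPM in Naïve and at 297, 223 and 250 CPM in αCD3 (-1.37 ± 0.09), against a mean of 692 CPM after IFNγ and 545 CPM after LPS. Il4ra (-1.37 ± 0.27) and Il6ra (-1.09 ± 0.22) fell too. Mean Il4ra was 249 CPM in Naïve and 96.4 CPM in αCD3, beside 156 CPM after IFNγ and 166 CPM after LPS, and neither treatment was called different from αCD3. Lyst, a regulator of lysosome size, was at 399, 497 and 521 CPM in Naïve and at 141, 121 and 146 CPM in αCD3, and Arl4c, a small GTPase gene, at 396, 493 and 533 CPM and at 152, 122 and 147 CPM. In the monocyte genes Vcan and Ccl9, which were called lower, Naïve replicate 1 was the lowest Naïve library, as for Vcan at 28.9 CPM against 91 and 81.4 CPM.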
